A study of Mus musculus with 3 samples.

Results

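Ureagenesis in the liver was described here through 10 genes of the urea cycle and of ammonia handling, a group defined by function. Of these, 9 were read by 13 probe sets that the platform annotation assigns to 1 gene alone (Cps1, Otc, Ass1, Asl, Arg1, Nags, Glul, Glud1 and Oat), out of 11341 genes with a probe set in the upper 50% of mean signal. No probe set was listed for Gls2, the liver glutaminase that releases ammonia from glutamine, and it was not analysed here. Livers came from male C57BL/6J mice. HF+SFC mice received the high-fat diet D12492 (60% of energy from fat, 20% from protein and 20% from carbohydrate) to which sodium ferrous citrate, an iron salt, had been added at 0.023% (w/w). HF mice received D12492 alone, and Control mice received D12450B (10% of energy from fat, 20% from protein and 70% from carbohydrate). Feeding lasted 15 weeks from an age of 6 weeks, and all mice were fasted for 4 h before collection. The labels state an age of 21 months, which does not match those times. Material of all samples of a group was mixed and hybridised to 1 array. The 3 arrays therefore carry no replicate error, no test or p-value is given, and every difference below is one between mixed samples. A ratio of the signals of 2 arrays is written HF/Control, HF+SFC/HF or HF+SFC/Control. As an approximate error, the SD between probe sets of one gene is given. It contains neither the variation between mice nor that between arrays.

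The urea cycle turns toxic ammonia into urea, and in mammals the liver is the main organ that runs the complete cycle. Its first steps lie in mitochondria, where Nags makes N-acetylglutamate, the activator that carbamoyl phosphate synthetase (Cps1) requires, and Otc joins carbamoyl phosphate to ornithine. Ass1, Asl and Arg1 complete the cycle in the cytosol and release urea and ornithine. Hepatocytes near the portal vein are rich in these enzymes. A narrow ring of hepatocytes around the central vein instead expresses Glul, glutamine synthetase, which captures the ammonia that escapes the cycle, together with Oat, ornithine aminotransferase. Glud1, glutamate dehydrogenase, interconverts glutamate and ammonia in mitochondria.

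On these arrays the enzymes of ureagenesis differed little between the diets. None of the 9 genes reached 1.5-fold by its brightest probe set in any comparison. The largest difference was in Glul, which was 1.38-fold higher in HF than in Control, and Ass1 was 1.35-fold higher by a dim probe set. Oat also lay above Control in HF and in HF+SFC, while Cps1 and Arg1 lay slightly below Control in HF under the deposited scaling. Among all 11341 genes, 11.3% reached 1.5-fold above Control in HF and 5.84% reached 1.5-fold below it. The shares were 2.88% higher and 5.33% lower for HF+SFC/HF, and 9.20% higher and 6.88% lower for HF+SFC/Control. For HF+SFC/HF these were 327 genes higher and 605 lower, and the split was even under quantile scaling (453 and 456) and near even under lowess scaling (447 and 461). Of so few genes, 0 beyond the threshold is not far from these shares, and 7 of the 9 belonged to the 499 genes with a mean signal of 10000 or more, where large ratios were rarer still. In that class 5.61% of genes were beyond 1.5-fold in either direction for HF/Control, 0.00% for HF+SFC/HF and 4.81% for HF+SFC/Control.

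**Figure D1:**
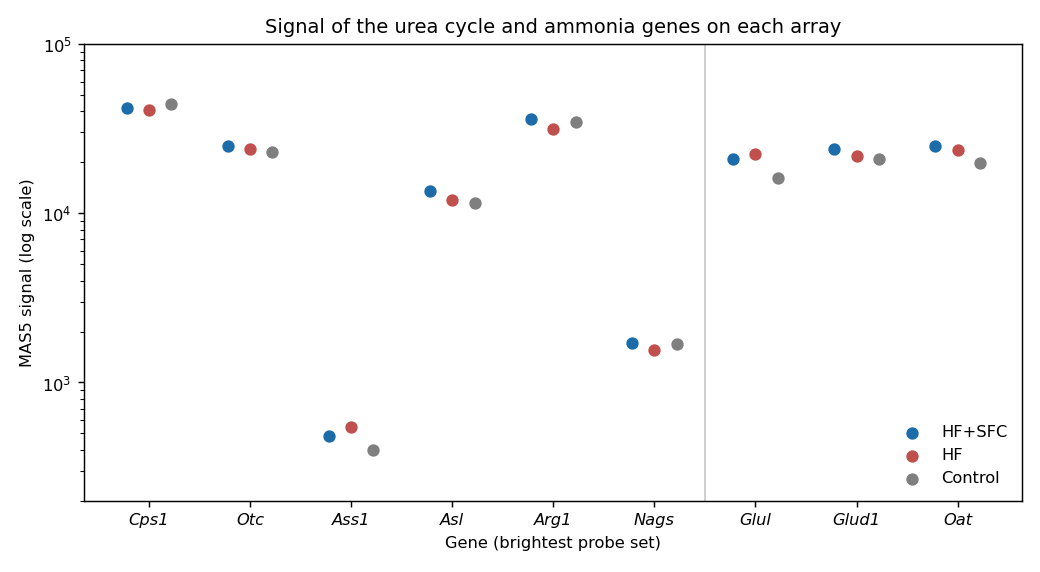
MAS5 signal (y axis, log scale) of each gene by its brightest probe set on the HF+SFC (blue), HF (red) and Control (grey) arrays, 1 array per group, with urea cycle enzymes left of the line. The 3 points of a gene lie close together, Glul being the widest apart with 20926 in HF+SFC, 22446 in HF and 16223 in Control.

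Cps1 was the brightest of the genes, and its mean signal ranked 55th among all probe sets other than controls. It gave 42110 in HF+SFC, 40579 in HF and 43989 in Control. The highest array exceeded the lowest by 1.08-fold. Its log2 ratio of HF/Control was -0.12 and that of HF+SFC/HF 0.05. The first sign turned under quantile and lowess scaling and the second under lowess scaling. The pooled SD between probe sets of one gene at signals of 10000 or more was 0.09 for HF/Control and 0.08 for HF+SFC/HF (114 genes), so Cps1 differed by about as much as probe sets of one gene differ from each other.

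Nags, which makes the activator of Cps1, was much dimmer, with 1708 in HF+SFC, 1566 in HF and 1687 in Control. Signals of different probe sets are not comparable as amounts of RNA, so this does not rank the transcripts. HF was the lowest of the 3 arrays for Nags as it was for Cps1, at -0.11 against Control on the log2 scale, and HF+SFC/HF stood at 0.13. The pooled SD over all probe sets in the upper 25% of signal was 0.20 for HF/Control and 0.17 for HF+SFC/HF (2354 genes), larger than both values.

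Otc, the second mitochondrial enzyme, gave 24800 in HF+SFC, 23932 in HF and 23020 in Control by its brightest probe set. A second probe set gave 14545 in HF+SFC, 14619 in HF and 13854 in Control. These 2 probe sets placed HF/Control at 0.06 and 0.08 on the log2 scale, and the brightest stood at 0.17 under quantile and 0.16 under lowess scaling. The remaining probe set was far dimmer and gave 448 in HF+SFC, 387 in HF and 227 in Control. Its log2 ratio was 0.77 for HF/Control and 0.98 for HF+SFC/Control, beyond 1.5-fold in both, and 0.21 for HF+SFC/HF. It was the only one of the 13 probe sets beyond 1.5-fold in any comparison. The 2 bright probe sets did not share this difference, and which transcripts each of them detects was not examined.

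Ass1, which condenses citrulline with aspartate, was read by 1 dim probe set, with 480 in HF+SFC, 544 in HF and 402 in Control. HF/Control stood at 0.44 and HF+SFC/HF at -0.18 on the log2 scale. A bright probe set is annotated to both Ass1 and Gm5424 and was therefore not used to read Ass1. It gave 22902 in HF+SFC, 21024 in HF and 22116 in Control. With the deposited scaling its log2 ratios were -0.07 for HF/Control and 0.12 for HF+SFC/HF, opposite in sign to those of the dim probe set. Its values under other scalings were not examined. The direction for Ass1 thus rested on a single probe set at a mean signal of 472.

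Asl, which cleaves argininosuccinate into arginine and fumarate, gave 13617 in HF+SFC, 12041 in HF and 11555 in Control. HF+SFC was 1.13-fold higher than HF and 1.18-fold higher than Control. Which step was larger depended on the scaling. On the log2 scale Asl stood at 0.06 for HF/Control and 0.18 for HF+SFC/HF with the deposited scaling, at 0.17 and 0.12 under quantile scaling, and at 0.14 and 0.13 under lowess scaling. Arg1, the arginase that releases urea, gave 36046 in HF+SFC, 31624 in HF and 34483 in Control. It was lowest in HF, at -0.12 against Control on the log2 scale, and HF+SFC was 1.14-fold higher than HF (0.19 on the log2 scale). For HF/Control Arg1 stood at -0.02 under quantile and -0.01 under lowess scaling, and for HF+SFC/HF at 0.12 and 0.13. The SD between bright probe sets was 0.08 for HF+SFC/HF, and Asl and Arg1 each had only 1 probe set.

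Glul differed most between the diets. Its brightest probe set gave 20926 in HF+SFC, 22446 in HF and 16223 in Control, and the other 12112 in HF+SFC, 13463 in HF and 9426 in Control. Both probe sets put HF highest and Control lowest. On the log2 scale HF/Control was 0.47 and 0.51, HF+SFC/Control 0.37 and 0.36, and HF+SFC/HF -0.10 and -0.15. The difference from Control was several times the SD of 0.09 between bright probe sets of one gene. That SD contains no variation between mice or arrays, so it does not measure the error of a difference between diets. Of the 499 genes with a mean signal of 10000 or more, 16 had a higher ratio of HF/Control than Glul and 48 a ratio larger in size in either direction. Among all 11341 genes 25.3% had a ratio larger in size.

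Oat, which passes the amino group of ornithine to 2-oxoglutarate, gave 25046 in HF+SFC, 23497 in HF and 19771 in Control by its 1 probe set. HF was 1.19-fold and HF+SFC 1.27-fold higher than Control, while HF+SFC/HF was 0.09 on the log2 scale. In the class of 499 bright genes, 43 had a higher ratio of HF/Control than Oat and 156 a ratio larger in size in either direction, and for HF+SFC/Control these were 41 and 85 genes. Quantile scaling gave 0.05 and lowess scaling 0.04 for HF+SFC/HF. Glul and Oat, both known as enzymes of the hepatocytes next to the central vein, thus had the highest ratios of HF+SFC/Control of the 9 genes. For HF/Control the periportal Ass1, by its dim probe set, stood above Oat, at 0.44 against 0.25 on the log2 scale. The log2 ratio of HF/Control was 0.58 higher for Glul than for Cps1, and 0.37 higher for Oat than for Cps1. The sign of Cps1 itself turned under quantile and lowess scaling.

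Glud1 gave 24083 in HF+SFC, 21792 in HF and 21024 in Control by its brighter probe set, and 24113 in HF+SFC, 21963 in HF and 20185 in Control by the other. Both placed the arrays in the same order. HF/Control was 0.05 and 0.12 on the log2 scale, and HF+SFC/HF was 0.14 and 0.13. HF+SFC was 1.15-fold and 1.19-fold higher than Control. By the brighter probe set HF/Control stood at 0.14 under quantile and 0.15 under lowess scaling, and HF+SFC/HF at 0.09 under both.

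**Figure D2:**
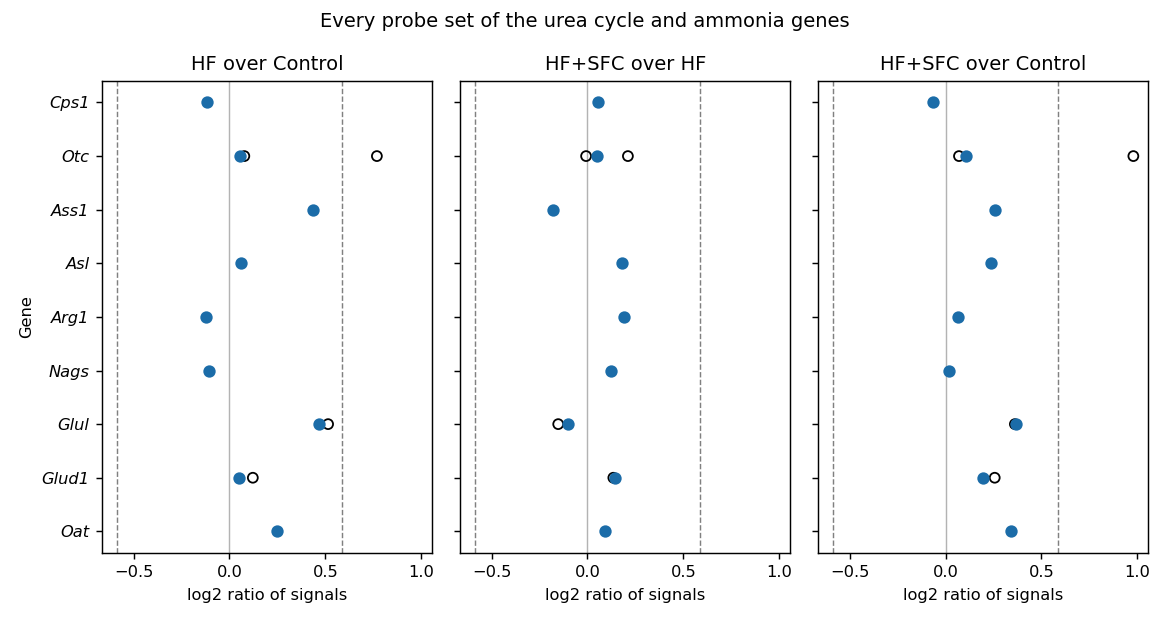
Log2 ratio of signals (x axis) of all 13 probe sets of the 9 genes (y axis) in the 3 comparisons, each from 1 array per group; filled points are the brightest probe set of a gene, open points its others, and dashed lines mark 1.5-fold. The dim probe set of Otc, at 0.77 for HF/Control and 0.98 for HF+SFC/Control, is the only point beyond the lines.

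The order of the arrays was HF+SFC highest in 6 of the 9 genes, HF in 2 (Ass1 and Glul) and Control in 1 (Cps1). Control was lowest in 6, HF in 3 and HF+SFC in 0. HF+SFC was above HF in 7 of the 9 genes, with Ass1 and Glul below, against 48.8% of all 11341 genes, and the median log2 ratio was 0.09, against -0.01 over all genes. Of the 9 genes, 5 to 7 were above HF under the alternatives tried, since Cps1 and Otc lay below 0 under lowess scaling and Otc also under quantile scaling. Of the 499 genes with a mean signal of 10000 or more, 72.9% were above 0 for HF+SFC/HF, with a median of 0.06, whereas 33.9% were above 0 for HF/Control, with a median of -0.08. For HF/Control the median of the 9 genes was 0.06, against 0.03 over all genes, and 6 of 9 were above 0, against 53.1% of all genes. This median depended on the scaling and was 0.17 under quantile and 0.15 under lowess scaling, where all genes stood at 0.00 and 0.01. For HF+SFC/Control it was 0.20, against 0.02 over all genes, and 8 of 9 were above 0, against 52.1% of all genes and 42.7% of the 499 bright genes, whose median was -0.04. The exception was Cps1, which was also above 0 under quantile and lowess scaling. Ratios of HF/Control and of HF+SFC/HF share the HF array, and both ratios over Control share the Control array, so that these counts are not independent of each other. Ass1 entered the orders and counts by its dim probe set. The bright probe set shared with Gm5424 was highest in HF+SFC and lowest in HF under the deposited scaling. By that probe set Ass1 would count as below 0 for HF/Control (-0.07) and above 0 for HF+SFC/HF (0.12).

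**Figure D3:**
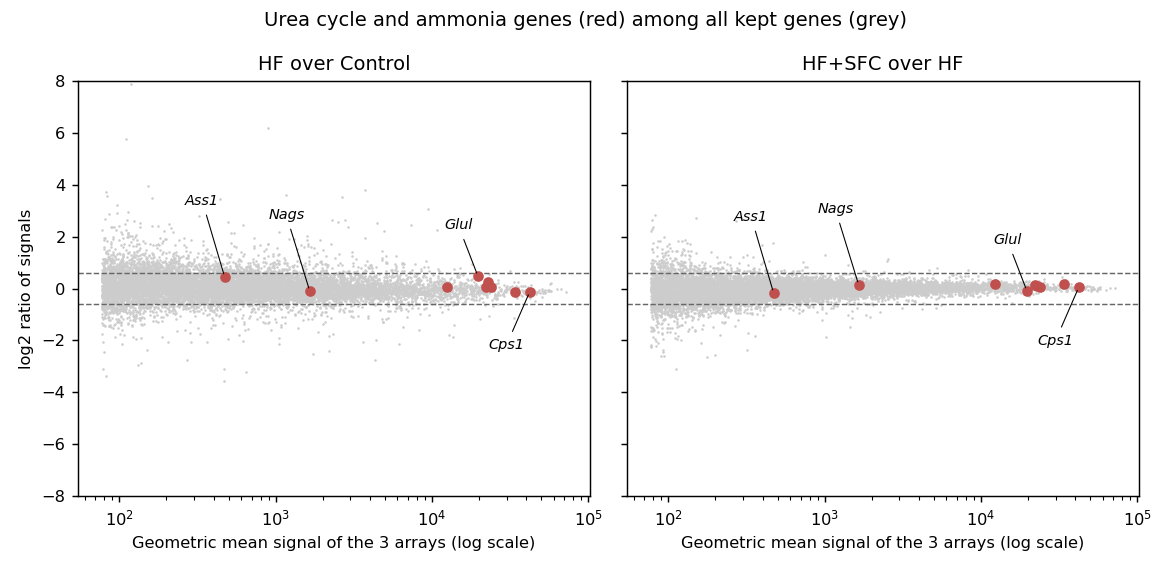
Log2 ratio of signals (y axis) against the geometric mean signal of the 3 arrays (x axis, log scale) for all 11341 genes (grey) and the 9 urea cycle and ammonia genes (red), for HF/Control (left) and HF+SFC/HF (right); dashed lines mark 1.5-fold. The spread narrows toward bright genes, where 7 of the 9 lie, and Glul stands at 0.47 on the left.

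The upstream sequences of Glul and Oat are shown because these were the genes with the highest ratios of HF+SFC/Control, which means that they were picked with their values known. Each run is 300 bases of GRCm38.p6 from RefSeq, 250 before the annotated start to 50 after it, 5′ to 3′ on the strand of the gene. Glul lies at chr1:153899679-153899978 on the plus strand and Oat at chr7:132576349-132576648 on the minus strand. Capitals mark matches, on either strand, to any of the 7 motifs searched. Basal promoter motifs were the CCAAT box, with those letters, and the GC box, spelled GGGCGG. Part of the cAMP-response element was searched as TGACG, and the site of TCF/LEF factors, which act in Wnt signalling, as CTTTGNT. The C/EBP site was taken as TTGCNNAA, the D-box of clock output factors as TTANGTAA and the E-box as CACGTG. The CCAAT and GC boxes were added after the sequences had been read.
Glul: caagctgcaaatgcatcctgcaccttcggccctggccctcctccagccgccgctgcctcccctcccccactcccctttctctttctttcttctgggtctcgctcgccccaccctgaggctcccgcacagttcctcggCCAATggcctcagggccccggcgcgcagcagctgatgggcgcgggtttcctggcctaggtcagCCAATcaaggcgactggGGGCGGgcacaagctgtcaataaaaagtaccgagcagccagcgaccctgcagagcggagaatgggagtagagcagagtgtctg
Oat: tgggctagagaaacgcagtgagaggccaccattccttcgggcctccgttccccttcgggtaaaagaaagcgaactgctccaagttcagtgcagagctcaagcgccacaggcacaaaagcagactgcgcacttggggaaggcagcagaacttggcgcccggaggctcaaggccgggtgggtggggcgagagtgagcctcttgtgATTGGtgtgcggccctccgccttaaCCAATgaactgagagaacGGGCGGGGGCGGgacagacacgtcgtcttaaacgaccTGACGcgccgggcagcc
Both windows held 2 CCAAT boxes, and they held 1 GC box in Glul and 2 in Oat, where they directly follow each other. CCAAT was present in 37.4% and GGGCGG in 35.7% of 32851 RefSeq windows of that length. Oat also had 1 TGACG, its first base at position 34 with the annotated start as 1, a motif found in 20.8% of windows. Neither window matched CTTTGNT (18.6% of windows), TTGCNNAA (10.8%), TTANGTAA (2.32%) or CACGTG (7.15%). A match is a description of the letters only. The table also held windows of Ass1, Nags, Glud1 and Otc, of which Nags and Otc matched CTTTGNT, Nags matched TGACG and Ass1 matched CACGTG. The GC box was in 5 of the 6 windows, with 1 match in Ass1, 2 in Nags and 3 in Glud1, and so does not set Glul and Oat apart.

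Several genes that carry nitrogen or supply bicarbonate for the cycle lay beyond 1.5-fold. Of 23 listed transporters and carbonic anhydrases 18 were kept, and for HF/Control 5 of them lay at or beyond 1.5-fold above and 1 below. Over all 11341 genes 11.3% lay above by as much and 5.84% below. For HF+SFC/HF these shares were 2.88% and 5.33%. Car5a, the mitochondrial carbonic anhydrase that supplies bicarbonate to Cps1, gave 3615 in HF+SFC, 3071 in HF and 1561 in Control. It stood at 0.98 on the log2 scale for HF/Control and 1.21 for HF+SFC/Control, with 1 probe set. Rhbg, an ammonia channel of perivenous hepatocytes, gave 371 in HF+SFC, 497 in HF and 234 in Control (log2 ratio of HF/Control 1.08). Slc25a22, a mitochondrial glutamate carrier, went the other way, with 2882 in HF+SFC, 2534 in HF and 5307 in Control (log2 ratio of HF/Control -1.07). Car2, a cytosolic carbonic anhydrase, was 0.89 on the log2 scale for HF/Control and -0.64 for HF+SFC/HF, the only gene of the list beyond 1.5-fold in HF+SFC/HF. The carriers closest to the cycle lay inside 1.5-fold in all 3 comparisons. Slc25a15, the ornithine and citrulline exchanger, gave 15926 in HF+SFC, 15366 in HF and 16869 in Control, and Slc25a13, the aspartate and glutamate carrier citrin, gave 8701 in HF+SFC, 7490 in HF and 8112 in Control. These 2 were named for their role and not for their size. The list had a median of 0.04 for HF/Control and 0.09 for HF+SFC/HF.

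Aminotransferases, which pass amino groups to glutamate and aspartate, had 11 kept genes of 12 listed, and their median for HF/Control was -0.25, with 1 gene beyond 1.5-fold above and 1 below. Agxt2, which transaminates alanine and glyoxylate, gave 6625 in HF+SFC, 6409 in HF and 3124 in Control. Kyat3 was the lower one at -0.61 on the log2 scale, close to the 1.5-fold threshold (0.585 in size). In HF+SFC/HF 10 of the 11 were above 0 with a median of 0.18, against 48.8% of all 11341 genes. Of the 499 genes with a mean signal of 10000 or more, 72.9% were above 0, with a median of 0.06. Values of this list under other scalings were not examined. The only aminotransferase beyond 1.5-fold in HF+SFC/HF was Bcat2, with the dim signals of 140 in HF+SFC, 67.7 in HF and 87.8 in Control. Enzymes that release ammonia had 10 kept genes of 14 listed. In HF 2 of the 10 were at least 1.5-fold higher than in Control, against 11.3% of all genes, and 0 lower. The 2 higher were the guanine deaminase Gda at 1.05 and the asparaginase Asrgl1 at 0.80 on the log2 scale. The 4 kept probe sets of Asrgl1 ranged between 0.30 and 0.97. The medians of these 10 enzymes were -0.02 for HF/Control and 0.01 for HF+SFC/HF, where Ada, adenosine deaminase, was the only one beyond 1.5-fold at -0.86. Its 1 probe set was dim, with 60.8 in HF+SFC, 110 in HF and 112 in Control. For HF+SFC/HF 2.88% of all genes were at least 1.5-fold higher and 5.33% lower.

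Side routes of arginine, ornithine and proline had 16 kept genes of 23 listed and a median of 0.29 for HF/Control. Prodh, the proline dehydrogenase, gave 5090 in HF+SFC, 4534 in HF and 2626 in Control (log2 ratio of HF/Control 0.79). It was at least 1.5-fold higher in HF, as was Asrgl1, which both lists hold, and 0 genes were lower. Over all 11341 genes 11.3% were higher and 5.84% lower. In HF+SFC/Control 5 of the 16 were at least 1.5-fold higher, against 9.20% of all genes. Among them were Prodh at 0.95, the asparagine synthetase Asns at 0.83, Aldh4a1 at 0.65 and Prodh2 at 0.60 on the log2 scale. Aldh4a1 and Prodh2 act in the breakdown of proline and hydroxyproline. Asns, with 215 in HF+SFC, 118 in HF and 121 in Control, was the only gene of this list beyond 1.5-fold for HF+SFC/HF. In that comparison 2.88% of all genes were higher by as much and 5.33% lower.

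Of 17 regulators of urea cycle genes, 4 lay beyond 1.5-fold below Control in HF and 1 above it, the median being -0.10, and 0 were beyond 1.5-fold for HF+SFC/HF. Over all 11341 genes 5.84% lay below Control in HF by as much and 11.3% above it. For HF+SFC/HF 2.88% were higher and 5.33% lower, and having none among 17 genes is not far from these shares. Hnf4a, a nuclear receptor that maintains hepatocyte genes, gave 11107 in HF+SFC, 10144 in HF and 15524 in Control by its brightest probe set. Its 4 probe sets ranged between -0.61 and -0.24 on the log2 scale for HF/Control. Hnf4a at -0.61 and Creb3l3 at -0.59 lay close to the 1.5-fold threshold, 0.585 in size. Both are bright, and quantile and lowess scaling raised HF/Control of the bright urea cycle and ammonia genes. Values of the regulators under those scalings were not examined. Crem, a cAMP-responsive modulator, stood at -1.31 and Onecut1 (HNF-6) at -1.29 by their brightest probe sets, whereas Foxo3 stood at 0.90. Each had 2 kept probe sets. The other one stood at -0.87 for Crem, -1.17 for Onecut1 and 0.35 for Foxo3, the last inside 1.5-fold. The glucagon receptor Gcgr gave 3901 in HF+SFC, 3318 in HF and 3397 in Control, a value named for its role and not for its size.

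**Figure D4:**
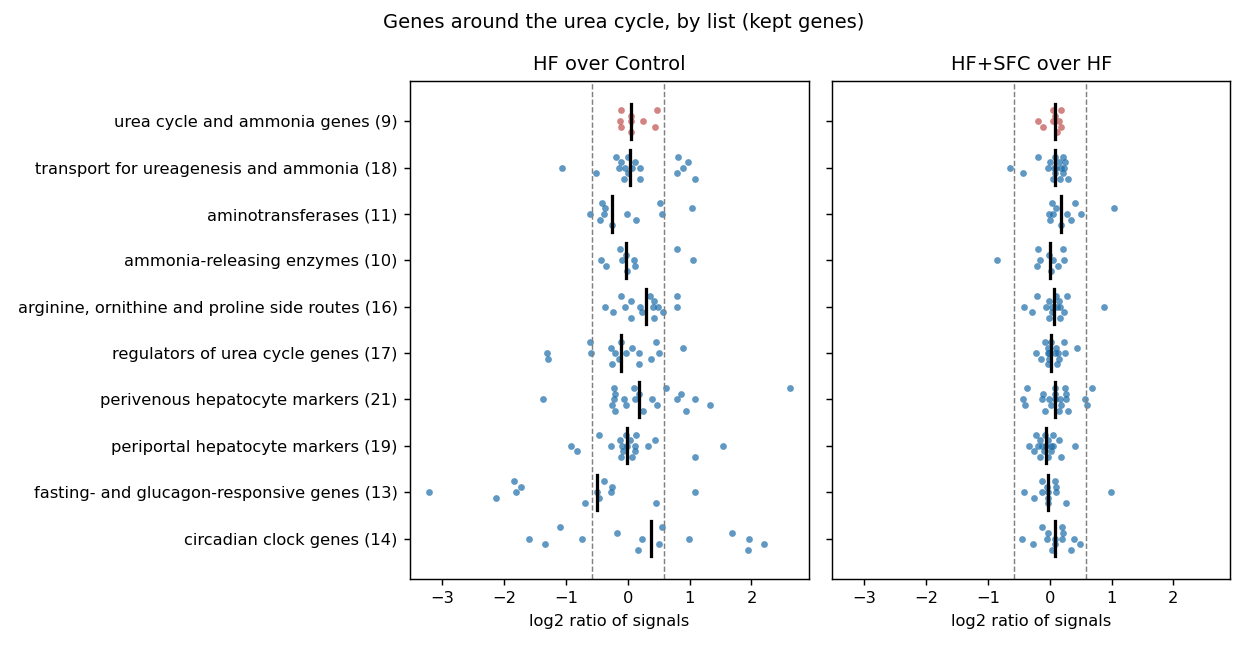
Log2 ratio of signals (x axis) of each kept gene (points) in the urea cycle and ammonia genes (red) and in 9 lists around them (blue, with the number of genes kept) for HF/Control (left) and HF+SFC/HF (right), 1 array per group; black bars are medians and dashed lines mark 1.5-fold. All 9 red points lie inside the lines in both panels, while fasting-responsive genes reach -3.22 on the left.

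Markers of hepatocyte zones were compared because Glul and Oat on one side and Cps1, Ass1 and Arg1 on the other differ in where they are expressed. Of 21 perivenous markers, which include Glul and Oat, 7 lay beyond 1.5-fold above Control in HF and 1 below it, and the median was 0.18. Of 19 periportal markers, which include Cps1, Ass1 and Arg1, 2 were higher and 2 lower, with a median of -0.01. Over all 11341 genes 11.3% were higher and 5.84% lower by as much. Such ratios were rarer among brighter genes, with 6.50% higher and 4.14% lower in the upper 25% of signal. Several of the 7 perivenous markers were dim, such as Rhbg with 497 and Slc1a4 with 183 in HF. Both lists hold genes that prompted the comparison, so their counts and medians are not separate from the values of those genes. The perivenous markers did not share 1 direction. Cyp7a1 was at 2.63 and Slc13a3 at 1.33 on the log2 scale, while Avpr1a was at -1.36 and the very bright Cyp2e1, with 51758 in HF+SFC, 52450 in HF and 54627 in Control, was level. Cyp7a1 is also controlled by bile acids and time of day, and is not a marker of zone alone. The RNA came from bulk liver, in which fewer cells of a kind cannot be told apart from less RNA per cell.

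Genes known to follow feeding state and time of day, which also act on ureagenesis, differed between the arrays. Of 13 genes that respond to fasting or glucagon, 6 lay beyond 1.5-fold below Control in HF and 1 above it (median -0.49), with Pdk4 at -3.22 and Igfbp1 at -2.13 on the log2 scale. In HF+SFC/HF 1 was higher, Irs2, and the median was -0.03. Irs2 gave 301 in HF+SFC, 151 in HF and 500 in Control by 1 probe set, below Control on both high-fat arrays. Of 14 circadian clock genes 5 lay beyond 1.5-fold above Control in HF, among them Dbp at 1.94 on the log2 scale, and 4 below it. None was beyond 1.5-fold for HF+SFC/HF. In that comparison 2.88% of all 11341 genes were higher by as much and 5.33% lower. Among so few genes, having none is not far from these shares. Over all 11341 genes 11.3% lay beyond 1.5-fold above Control in HF and 5.84% below it. The part of feeding state and time of day in the values of Glul and Oat was not tested.

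Signals of other cells were set beside these results. Of 17 markers of macrophages and Kupffer cells, 5 lay beyond 1.5-fold above Control in HF and 16 above 0, and their summed signal was 30755 in HF+SFC, 41199 in HF and 31051 in Control. Stellate cell markers lay beyond 1.5-fold above Control in 10 of 14, with sums of 22657 in HF+SFC, 29492 in HF and 19323 in Control. Endothelial markers did so in 2 of 12, with sums of 14753 in HF+SFC, 16845 in HF and 14855 in Control. Over all 11341 genes 11.3% lay beyond 1.5-fold above Control in HF and 53.1% above 0, and the endothelial count is not far from that share. All 3 sums were highest in HF, as were Glul and the dim probe set of Ass1. The bright probe set shared by Ass1 and Gm5424 was lowest in HF under the deposited scaling. The part of these cells in the values of Glul and Ass1 was not tested. Cholangiocyte, lymphocyte and erythroid markers had 3 kept of 7 listed, 2 of 10 and 2 of 8. Hepatocyte markers, 11 kept of 13 listed, had sums of 494982 in HF+SFC, 494342 in HF and 534444 in Control. Of these markers 1, Hnf4a, was beyond 1.5-fold for HF/Control, close to the threshold. Alb, the albumin gene that defines hepatocytes, gave 52202 in HF+SFC, 50644 in HF and 54077 in Control, which fits the tissue label. No signal was 0 on any array, the lowest in the file being 0.157.

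Median signals over all 45101 probe sets were 80.4 in HF+SFC, 87.3 in HF and 81.7 in Control after scaling by the authors. The ratio of 3′ to 5′ signal for Actb was 1.73 in HF+SFC, 1.65 in HF and 1.84 in Control, for Gapdh 0.708 in HF+SFC, 0.680 in HF and 0.708 in Control, and for Pcx 3.89 in HF+SFC, 3.23 in HF and 4.28 in Control. It was lowest in HF for all 3, the array with the highest Glul, and its part in that value was not tested.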

How the data were processed

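Liver RNA of 3 groups (HF+SFC, HF and Control) was labelled with biotin and hybridised to Affymetrix GeneChip mouse arrays, 1 array per group of mixed material. Deposited were linear intensity values (MAS5 signals) for 45101 probe sets, which the authors had scaled to a 2% trimmed mean of 500.004 on each array. The MAS5 version is not given in the sources used here, and neither background nor detection calls were used. The number of arrays limits the precision.

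Gene names came from the annotation of the platform, in which 34945 had 1 gene, 932 several and 9160 were not listed, besides 64 controls. All 9 member genes matched RefSeq (GRCm38.p6) by Entrez identifier. Log2 ratios of the deposited signals were computed with no pseudocount. A gene was read by its brightest probe set (mean log2 signal) and kept if that lay in the upper 50% (a signal of 76.9 or more), and 1.5-fold, the threshold of the study, was used for counts. The pooled SD between kept probe sets of one gene stood in for an error.

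All members were named, and of each other list up to 4 genes beyond 1.5-fold per comparison, besides Slc25a15, Slc25a13, Gcgr, Cyp2e1 and Alb, which were added for their role. Creb3l3 was added because it lay near the threshold. The rule also provided for genes of like pattern for any member beyond 1.5-fold, of which there were 0. Members and lists were chosen with earlier results of these data known. The 10 alternatives were quantile scaling, median centring, lowess scaling (fraction 0.3), a pseudocount of 16, flooring signals at their array's median, no filter, the upper 25% of signal (393.9 or more), the median over probe sets, leaving out probe sets with the suffixes _s, _x and _a, and a 2-fold threshold. The steps were tested on simulated data, with noise set by hand and some genes changed 2-fold. This says nothing of differences as small as those of the members. Python 3.11.15, pandas 2.3.3, numpy 2.4.6, scipy 1.17.1, statsmodels 0.14.6 and matplotlib 3.10.9 were used.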

Additional observations from a re-analysis of the deposited data

How the results depend on the processing

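No paired analysis was possible because each group had 1 array. No urea cycle or ammonia gene was beyond 1.5-fold under quantile scaling, lowess scaling, median centring, a pseudocount of 16 or the median over probe sets. Glul for HF/Control came close to the threshold of 0.585, at 0.57 under quantile and 0.56 under lowess scaling. Median centring and the pseudocount left it at 0.45 and 0.47. They move such signals too little to bring a gene to the threshold, and so say little. Dropping the filter, the upper 25% of signal and the floor left the ratios of the 9 genes as they were, and a 2-fold threshold could only give 0, so these 4 alternatives say nothing of stability. Without probe sets of the suffixes _s, _x and _a, 1 gene was higher for HF/Control and 1 for HF+SFC/Control. In both cases it was Otc, then read by its dim probe set at 0.77 and 0.98, and Glul had no probe set left. Medians of the genes ranged between 0.03 and 0.17 for HF/Control, 0.04 and 0.13 for HF+SFC/HF, and 0.20 and 0.24 for HF+SFC/Control, all above 0. Glul for HF/Control ranged between 0.45 and 0.57 and Oat between 0.23 and 0.35. Signs turned for Cps1 in each comparison and for Otc in HF+SFC/HF, under quantile or lowess scaling. Over all genes, 3699 were at least 1.5-fold higher and 2755 lower for HF/Control without a filter, 2330 and 3028 for HF+SFC/HF, and 3228 and 3072 for HF+SFC/Control. In the upper 25% of signal these counts were 444 and 283, 39 and 76, and 410 and 306, and with a 2-fold threshold 391 and 192, 87 and 135, and 319 and 208. Variation between mice and between arrays was not measured, so the precision of every ratio is unknown beyond the spread between probe sets, which could be read for 3 of the 9 genes.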
